A study of Mus musculus with 4 samples.

Results

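The comparison described here set the array of cells given both Nurr1 and Foxa2 against the array of cells given Nurr1 alone. It follows what went with Foxa2 when Nurr1 was given on both sides. Its members were all bead probes with a gene symbol in the platform annotation and a detection p-value under 0.01 on at least 1 of the 2 arrays. They were 11041 of the 25697 probes on the array, or 11041 of 12484 with a symbol, and they represented 7979 of 8980 named genes. The cells were neural precursors from the cortex of ICR mouse embryos at embryonic day 12, expanded with bFGF and EGF in N2 medium with ascorbic acid and B27. The Nurr1 group was incubated for 2 hours with supernatant of a pCL retrovirus carrying Nurr1, and the other group with retrovirus labelled Nurr1-Foxa2. The labels describe vectors with Nurr1 or with Foxa2 and do not say how the pair was given. The cells then differentiated for 2 days without bFGF and EGF before RNA was taken. The share of cells that took up virus is not given in the labels either, so each array is an average over transduced and other cells. Arrays of the empty pCL virus (Control) and of Foxa2 alone complete the series of 4, with 1 array per group, and they enter no fold or count of the comparison. Their levels are given beside it, and they were used in 1 normalization alternative and in a closing count of which array was brightest. No group was repeated, so no test was made and every difference below compares 2 arrays, not 2 conditions.

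Nurr1, the protein of Nr4a2, is an orphan nuclear receptor that binds DNA near the genes of dopamine synthesis and transport and is needed for midbrain dopamine neurons to form. Foxa2 is a forkhead transcription factor, able to bind its sites in closed chromatin, that specifies the floor plate and stays on in dopamine neurons. Dopamine is made from tyrosine by tyrosine hydroxylase (Th) and aromatic amino acid decarboxylase (Ddc), with a cofactor, tetrahydrobiopterin, whose synthesis starts with Gch1. The transporter Slc6a3 takes released dopamine back into the neuron.

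With both factors, 352 genes were at least 2-fold higher than with Nurr1 alone, which is 4.41% of the 7979 detected genes, and 137 were at least 2-fold lower, 1.72%, together 6.13%. At a limit of 1.5-fold the counts were 763 (9.56%) and 554 (6.94%). Without background correction the lower genes numbered 73, and with the deposited log2 values of the authors also 73. On the higher side Car14 was the furthest apart, followed by Th, Cldn10, Ctsh and Palmd. Other leaders were Ddc, Gch1 and Slc6a3, like Th of dopamine synthesis and transport, and secreted proteins such as Mia, Sod3 and Fgf10. The lower genes were led by Nptx2, Chrm3, Igfbp3 and Prkcq and included 8 of 14 detected genes of the oligodendrocyte lineage. Of the 352, 79 reached 4-fold and 28 of these 8-fold, while 9 of the 137 were at least 4-fold and none at least 8-fold lower. Most genes lay close together on the 2 arrays: 6662 differed by less than 1.5-fold. The median log2 difference over all detected genes was -0.08, and the middle part of genes detected on both arrays, from the 25th to the 75th percentile, ran from -0.29 to 0.17. Of all detected genes 58.5% lay below 0 and 41.1% above, which is the background for the counts of list members on either side of 0 below.

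The upstream sequences of the 4 leading genes of dopamine synthesis and transport are shown because the experiment adds a factor that binds DNA and these genes differed together. Car14 and Fgf10 are added as leading higher genes picked because their windows hold a match. Each is the 250 bases before an annotated transcript start, from RefSeq (GRCm38.p6), 5′ to 3′ on the strand of the gene, and where a gene has several starts other windows exist. Capitals mark matches, on either strand, to 3 forms of the forkhead core motif or to the monomer element that Nurr1 binds. The first form is written TGTTTAC in these letters. The second form is TATTTAC by the same reading. The third form is TGTTTGC by that reading. The Nurr1 element is AAAGGTCA. No match overlapped another in the windows printed.
Th, chr7:142899996-142900245, minus strand: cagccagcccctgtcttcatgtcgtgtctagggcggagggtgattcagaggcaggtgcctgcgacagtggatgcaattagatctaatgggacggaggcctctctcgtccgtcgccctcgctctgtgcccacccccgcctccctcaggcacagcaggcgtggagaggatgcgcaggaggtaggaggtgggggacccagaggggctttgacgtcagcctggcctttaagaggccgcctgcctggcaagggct
Slc6a3, chr13:73536497-73536746, plus strand: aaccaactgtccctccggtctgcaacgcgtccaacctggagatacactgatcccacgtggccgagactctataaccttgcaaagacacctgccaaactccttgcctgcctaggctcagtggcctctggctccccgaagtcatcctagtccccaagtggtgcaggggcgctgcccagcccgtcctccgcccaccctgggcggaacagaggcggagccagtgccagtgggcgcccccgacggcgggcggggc
Gch1, chr14:47189414-47189663, minus strand: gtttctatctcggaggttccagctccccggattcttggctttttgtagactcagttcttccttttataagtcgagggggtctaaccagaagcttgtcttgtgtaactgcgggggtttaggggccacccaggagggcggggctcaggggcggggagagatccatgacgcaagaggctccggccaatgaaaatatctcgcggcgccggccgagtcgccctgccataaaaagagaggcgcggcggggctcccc
Ddc, first window, chr11:11898145-11898394, minus strand: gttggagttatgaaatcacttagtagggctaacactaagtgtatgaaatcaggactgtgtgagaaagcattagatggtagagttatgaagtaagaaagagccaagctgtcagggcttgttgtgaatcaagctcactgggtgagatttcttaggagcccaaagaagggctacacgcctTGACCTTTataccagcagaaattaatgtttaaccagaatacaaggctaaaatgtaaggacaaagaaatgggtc
Ddc, second window, chr11:11890409-11890658, minus strand: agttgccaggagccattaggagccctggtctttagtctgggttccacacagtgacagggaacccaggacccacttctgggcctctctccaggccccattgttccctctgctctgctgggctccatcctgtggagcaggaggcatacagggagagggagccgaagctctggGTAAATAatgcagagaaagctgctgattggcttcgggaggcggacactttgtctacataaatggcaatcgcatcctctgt
Car14, chr3:95904686-95904935, minus strand: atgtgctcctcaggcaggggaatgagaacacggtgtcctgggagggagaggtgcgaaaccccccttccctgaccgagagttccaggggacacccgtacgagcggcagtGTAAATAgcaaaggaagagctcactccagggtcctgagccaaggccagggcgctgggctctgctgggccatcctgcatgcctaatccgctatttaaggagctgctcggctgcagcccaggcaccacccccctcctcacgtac
Fgf10, chr13:118714449-118714698, plus strand: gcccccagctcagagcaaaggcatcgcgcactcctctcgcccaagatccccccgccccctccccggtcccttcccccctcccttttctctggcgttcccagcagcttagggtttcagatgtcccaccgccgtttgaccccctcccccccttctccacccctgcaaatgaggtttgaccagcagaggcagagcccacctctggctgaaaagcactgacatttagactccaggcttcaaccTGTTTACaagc

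The windows of Th, Slc6a3 and Gch1 held none of the 4 letter strings. One Ddc window held AAAGGTCA on the opposite strand, beginning 73 bases before the start, and the other held TATTTAC on the opposite strand 80 bases before it. Car14 had TATTTAC on the opposite strand 142 bases before its start, and Fgf10 had TGTTTAC 11 bases before its own. Such letters are common: a forkhead string was found for 11% of the 27025 genes with a window. The share was 7.92% of 6539 detected genes with a window, 9.59% of 271 at least 2-fold higher and 7% of 100 at least 2-fold lower. AAAGGTCA was found for 0.963% of the detected genes and for 3 of the 271 higher ones (1.11%). Of the leading higher genes with a window 7 of 18 had a match, and the windows of Cldn10, Mia and Pygl, not printed, had none. Of the leading lower genes with a window 2 of 17 had one. In these 2 counts a match is any of the 4 strings in any window of the gene. The sets are small, and their shares were not tested. A match describes the letters of these windows and not binding.

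**Figure D1:**
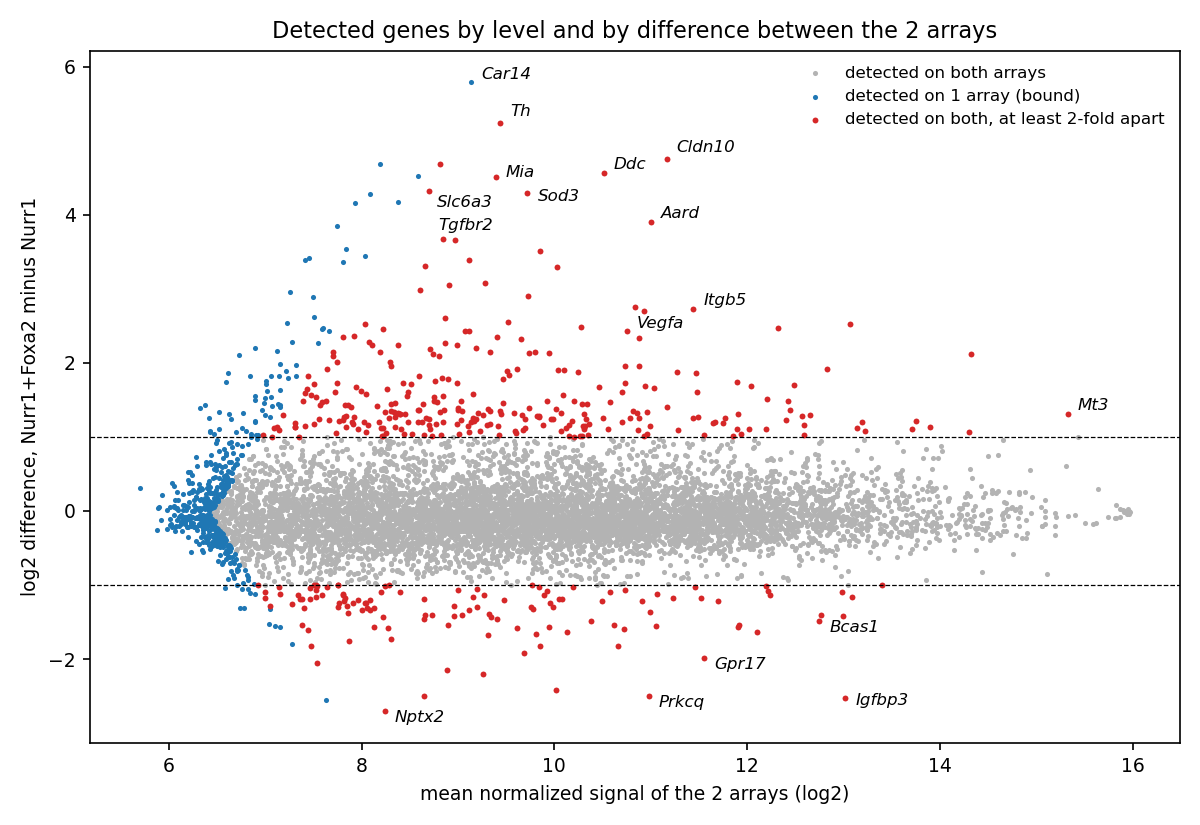
Each point is a gene, with the mean of its 2 normalized log2 signals on the x axis and the log2 difference, both factors minus Nurr1, on the y axis. Dashed lines mark 2-fold, red points are genes detected on both arrays and at least 2-fold apart, and blue points were detected on 1 array and have only a bound (27 genes given no difference are not drawn). The higher side reaches 5.79 (Car14), the lower side -2.71 (Nptx2).

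The label of the shared factor was checked first. The Nr4a2 probe had a signal of 1669 with Nurr1 and 1620 with both factors, 1.11-fold lower, against 167 on the Control array and 216 on the Foxa2 array. Both arrays labelled with Nurr1 thus carried a high and nearly equal Nr4a2 signal. Foxa2 has no named probe among those analysed, so the added factor itself was not checked, and neither was its relative Foxa1.

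The median deposited signal was 138 for Nurr1 and 149 for both factors, with 11316 and 11420 probes detected. Of the 7979 genes, 7457 were detected on both arrays, 280 only with both factors and 242 only with Nurr1. For a gene detected on 1 array, the undetected value was replaced by the dimmest normalized signal of any detected probe on that array where it lay under it, so its fold is a bound and is written "at least". Such a bound holds only for this normalization. Of the 114 genes picked for naming by a difference of at least 2-fold, 28 had a fold over 1.5 times smaller without background correction. Their values are given beside them where they are described. Of the 352 higher genes 69 rest on such a bound, and of the 137 lower ones 14. The only error available is the spread between different probes of a gene, a standard deviation of 0.20 (log2) over 1994 genes with at least 2 probes detected on both arrays. It holds nothing of the variation from one culture or transduction to the next. It also leaves out probes detected on 1 array only, some of which differed widely from their partners, as given below for Gch1, Shh and Tgfbr2. At the threshold, Tmtc2 (2.0006-fold) was just inside the higher group and Ttc39c (1.998-fold) just outside, while Rasgrf1 (2.0013-fold) was just inside the lower group and Polr2f (1.9968-fold) just outside.

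The dopamine genes were read on all 4 arrays. The Th signal was 101 on the Control array, 188 with Nurr1, 237 with Foxa2 and 4470 with both. It was therefore low on 3 arrays and high on 1, and the value with both factors was 37.7-fold that with Nurr1. For Slc6a3 the signals were 117, 171, 113 and 2023 in the same order, a 20.0-fold difference between both factors and Nurr1. The Nurr1 signals of Th and Slc6a3 were close to the lowest detected signal of that array (166). Without background correction the log2 difference of Th was 4.45 in place of 5.24, and that of Slc6a3 was 3.44 in place of 4.32.

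Ddc and the cofactor genes had another pattern over the arrays. Ddc had signals of 106 (Control), 368 (Nurr1), 5243 (Foxa2) and 7392 (both), and was 23.7-fold higher with both factors than with Nurr1. Gch1 had 145, 152, 1366 and 2178 in that order and was at least 23-fold higher. Both genes were thus already bright with Foxa2 alone, unlike Th and Slc6a3. Without background correction the Gch1 bound was 12.1-fold. The second Gch1 probe, dimmer, gave a bound of 0.97 (log2) against 4.53 for the first. Dnajc12, a co-chaperone of the aromatic amino acid hydroxylases, had 400, 367, 4681 and 1674 and was 5.11-fold higher with both factors than with Nurr1, yet its brightest array was Foxa2 alone.

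The other enzymes around dopamine lay within 1.5-fold. Of the cofactor pathway, Pts, which catalyses the step after Gch1, went from 964 with Nurr1 to 1105 with both factors (log2 difference 0.10) and Spr, which completes the synthesis, from 1015 to 778 (-0.55). The recycling enzyme genes Qdpr (1129 to 1592, log2 0.42) and Pcbd2 (1245 to 1700, log2 0.37) were somewhat above. Drd2, the dopamine autoreceptor, was detected with both factors at 182 against 156, where 179 was the lowest detected signal, and was given no difference. Gchfr, which encodes a regulator of Gch1, and Pcbd1 were detected on neither array, and the vesicular transporter genes Slc18a2 and Slc18a1, the breakdown enzyme genes Maoa and Maob, and Dbh had no named probe. In all, 5 of 10 detected genes of this list were at least 2-fold higher, against 4.41% of all detected genes. None was lower, against 1.72%, and the median log2 difference was 1.39. With detection at a p-value under 0.05 that median was 0.40.

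**Figure D2:**
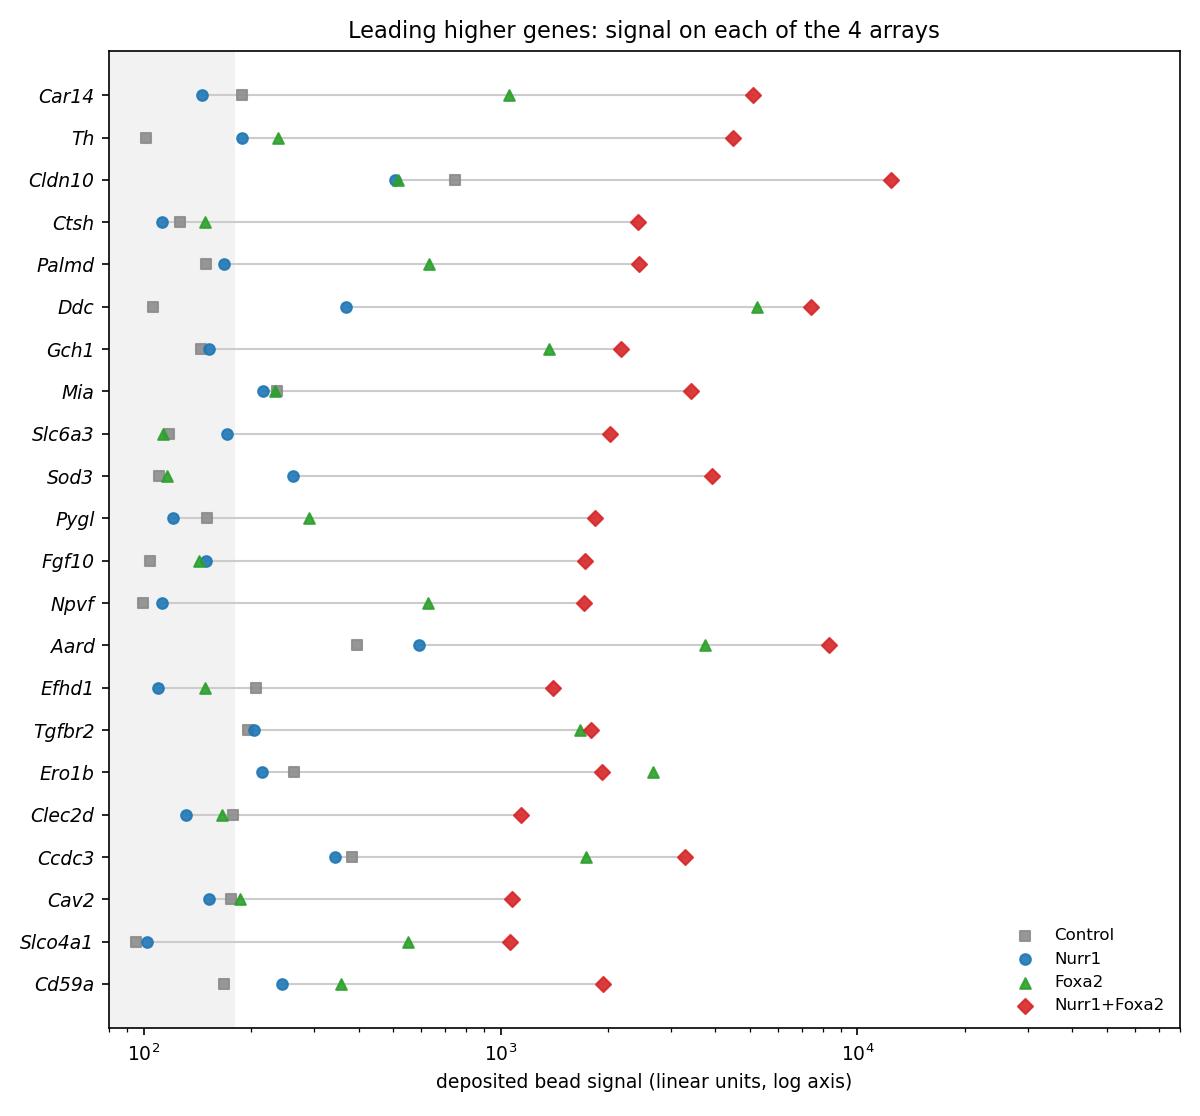
Deposited bead signal (log axis) on each of the 4 arrays for the 12 largest measured differences and the 10 largest bounds on the higher side. A grey line joins the Nurr1 array to the array with both factors, and the shaded area lies below the lowest signal detected with both factors (179). Th, Slc6a3, Cldn10 and Mia are high only with both factors, whereas Ddc, Gch1, Aard, Tgfbr2 and Ero1b are also high with Foxa2 alone.

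Genes that define midbrain dopamine neurons and their trophic support lay on both sides of 0. Bdnf, encoding brain-derived neurotrophic factor, went from 198 with Nurr1 to 706 with both factors, 4.85-fold higher. The early B cell factor genes, which act in neuronal differentiation and migration, were above too: Ebf1 went from 145, not detected, to 355, at least 2.88-fold higher, and Ebf3 from 409 to 781, 1.93-fold. Without background correction the Ebf1 bound was under 2-fold (log2 0.96). Ret, the receptor kinase of the GDNF family, was 2.46-fold lower (969 to 482), and its co-receptor gene Gfra1 went from 354 to 289. The midbrain factor genes En2 (224 to 160) and Lmx1b (176 to 152) were detected only with Nurr1. Lmx1b lay close to the lowest signal detected on that array (166), and En2 somewhat further above it. En1 and Msx1 were detected on neither array, while Pitx3, Lmx1a, Aldh1a1 and Kcnj6 had no named probe. Of 9 detected genes of the list 2 were at least 2-fold higher and 1 lower, against 4.41% and 1.72% of all genes. The list median was -0.15.

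Of the floor plate genes, 3 were not detected with Nurr1 and detected with both factors. Shh, the morphogen secreted by the floor plate, had a signal of 101 with Nurr1 and 1040 with both, at least 10.4-fold higher, and 3414 with Foxa2 alone. Corin, a protease gene that marks the midbrain floor plate, had 94.7 and 485, at least 4.30-fold higher, and 1141 with Foxa2 alone. Sulf1, which edits heparan sulphate and so the range of secreted signals, had 129 and 501, at least 4.48-fold higher, and 507 with Foxa2 alone. Without background correction these bounds were 5.75-fold for Shh, 2.66-fold for Corin and 2.75-fold for Sulf1. A second Shh probe gave a bound of 0.35 (log2) against 3.38. Slit2, which repels axons from the midline, went from 1371 to 2548, 1.78-fold higher, and Wnt5a from 478 to 802. Nkx2-2, a gene of ventral progenitors and of the oligodendrocyte lineage, was 1.97-fold lower. The 7 detected genes had a median of 0.91, with 3 at least 2-fold higher, against 4.41% of all detected genes.

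The targets of Shh signalling were close on the 2 arrays. Ptch1, the receptor gene that the pathway itself induces, went from 207 to 277 (log2 0.42), and Ccnd1 from 3680 to 4182 (0.10). Smo, the transducer, went from 925 to 905 (-0.16), and Hhip and Gli3 were detected on neither array. No gene of 6 detected was 2-fold apart, and the median was 0.04. Genes of endoderm and epithelium, tissues in which Foxa factors also act, gave a similar picture. Only 9 of 45 listed had a named probe and 4 were detected, with Ttr, the transthyretin gene, the furthest apart (397 to 544, log2 0.39).

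Cldn10, encoding a tight junction claudin, was among the leaders of the higher genes. Its signals were 747 (Control), 506 (Nurr1), 517 (Foxa2) and 12452 (both), so that 3 arrays were alike and the array with both factors was 26.8-fold above Nurr1. Its 3 probes gave log2 differences of 4.49 (a bound), 4.75 and 5.09. Palmd, a cytoskeletal protein gene, went from 167 with Nurr1 to 2437 with both factors, 25.6-fold higher, with 629 on the Foxa2 array. Cldn1, another claudin gene, was not detected with Nurr1 (130) and had 766 with both factors, at least 7.39-fold higher. Without background correction Palmd was 13.5-fold and Cldn1 4.22-fold higher. Itgb5, an integrin chain that binds vitronectin, went from 1131 to 7393, 6.61-fold, and Itga3, a laminin-binding integrin chain, from 488 to 1066, 2.22-fold. Cdh6 and Cdh8, classical cadherins, were higher by 2.37-fold and by a bound of 2.11-fold, whereas Cdh13, a cadherin anchored by lipid, was 2.32-fold lower and the axonal adhesion gene Cntn1 2.04-fold lower. Cntn1 was under 2-fold without background correction (-0.99 in log2). Cdh8, dim with both factors (287) and not detected with Nurr1 (116), was not among the 114 genes compared without background correction. Of 34 detected adhesion and junction genes 7 were higher and 2 lower, against 4.41% and 1.72% of all detected genes, and the median was 0.01.

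Several genes of secreted proteins were among the leading higher ones. Mia, a small secreted protein of cartilage and pigment cells, had low signals on 3 arrays (236, 216 and 233 for Control, Nurr1 and Foxa2) and 3414 with both factors, 22.8-fold above Nurr1. Fgf10, a fibroblast growth factor gene, was detected with both factors only (1721 against 149 with Nurr1), at least 18-fold higher. Npvf, which encodes RFamide peptides, went from 113 to 1708, at least 17.8-fold higher, and was 628 with Foxa2 alone. Vegfa, the angiogenic growth factor gene, went from 803 to 4198, 5.37-fold, with 571 on the Foxa2 array and 1.97 (log2) from its second probe. Without background correction Mia was 14.5-fold, Fgf10 9.56-fold and Npvf 9.47-fold higher. Among matrix genes, the laminin chain gene Lamc1 was 2.01-fold higher, while Bcan, the proteoglycan brevican (12735 to 6176), and Loxl1, a collagen and elastin crosslinking enzyme (409 to 246), were 2.23-fold and 2.32-fold lower. Lamc1 and Loxl1 were under 2-fold without background correction (0.93 and -0.87 in log2). Of 33 detected matrix genes 2 were higher and 2 lower, close to the shares of all genes (4.41% and 1.72%).

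Enzyme and stress-related genes also stood among the leaders. Car14, a membrane carbonic anhydrase, had 146 with Nurr1, not detected, and 5099 with both factors, at least 55.3-fold higher, and 1057 with Foxa2 alone. Sod3, the extracellular superoxide dismutase gene, went from 262 to 3919, 19.6-fold, and was not detected on the Foxa2 array (116). Ctsh, a lysosomal protease gene, went from 113 to 2420, at least 25.7-fold, and Pygl, the liver glycogen phosphorylase gene, from 121 to 1845, at least 19.4-fold. Without background correction Car14 was 28.3-fold, Ctsh 13.5-fold and Pygl 10.3-fold higher. The metallothionein genes, whose products bind zinc and copper, were above on the array with both factors. Mt2 was 4.58-fold higher (343 to 1385), Mt3 2.48-fold (25958 to 64378) and Mt1 1.99-fold (30656 to 62971). The Mt3 signal with both factors was the highest of any probe on that array.

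Genes of protein folding in the endoplasmic reticulum lay mostly above their Nurr1 values. Ero1b, an oxidase that drives disulphide bonds in secretory cells, went from 215 to 1925, 12.6-fold higher, with 2670 on the Foxa2 array. Without background correction Ero1b was 8.21-fold higher. Sel1l, a part of the ubiquitin ligase that clears misfolded proteins, was 3.65-fold higher (1515 to 5736), and its other probes gave log2 differences of 1.81 and 2.24. Pdia6, a disulphide isomerase gene, was 2.23-fold higher, but under 2-fold without background correction (0.95 in log2). Calr (log2 0.81), Pdia4 (0.60), Pdia3 (0.55) and Hsp90b1 (0.51), all lumenal chaperones or isomerases, were under 2-fold. Ddit3 and Chac1, genes of the stress response to misfolded protein, went from 608 to 654 and from 410 to 284. In the list, 3 of 19 detected genes were at least 2-fold higher, against 4.41% of all genes, and none lower. In it 15 lay above 0, and the median was 0.51 against -0.08 for all genes.

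The transforming growth factor family held 8 higher genes of 25 detected and none lower, where 4.41% of all detected genes were higher. Among ligands, Tgfb2 went from 303 to 1382, 5.38-fold, Bmp4 from 143, not detected, to 373, at least 3.08-fold, and Tgfb3 from 149, not detected, to 329, at least 2.58-fold. Among receptors, Tgfbr2 went from 204 to 1791, 12.7-fold, Tgfbr3 from 154 to 374, at least 3.09-fold, and Acvr1 from 477 to 999, 2.12-fold. The second Tgfbr2 probe, dimmer, gave a bound of only 0.06 (log2). The secreted BMP antagonist gene Chrd was 2.96-fold higher (691 to 2030) and Fstl1, related to follistatin, 2.48-fold (2444 to 6407). Target genes differed little: Id1 (log2 0.26), Id2 (0.01) and Id3 (0.45), inhibitors of basic helix-loop-helix factors that BMP signals induce, were all within 1.5-fold. With Foxa2 alone the signals of Tgfb2 and Tgfbr2 were 1058 and 1667. Without background correction Tgfbr2 was 8.03-fold higher, and the bounds of Bmp4 and Tgfbr3 were both 2.05-fold. That of Tgfb3 was under 2-fold (0.84 in log2 against 1.37). Acvr1 and Fstl1 were not among the 114 genes compared in this way.

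Genes of general neuronal identity were close on the 2 arrays, with 22 below 0 and 10 above. Of 33 such genes detected, the 2 higher ones were Cplx2 (252 to 509, 2.23-fold) and Eno2 (912 to 2008, 2.15-fold). The 1 lower was the calcium sensor gene Syt1 (909 to 434, 2.65-fold). Of all detected genes 4.41% were at least 2-fold higher and 1.72% lower. Cplx2 was under 2-fold without background correction (0.87 in log2). The microtubule protein genes Map2 (7038 to 5543) and Dcx (3767 to 2571) and the growth cone gene Gap43 (994 to 764) had log2 differences of -0.43, -0.66 and -0.54. The list median was -0.21. In the vesicle genes, Syt9, a synaptotagmin, was 4.35-fold higher and Dnajc6, which encodes auxilin, the clathrin uncoating factor, 3.22-fold (2354 to 7812, with a second probe at 1.68 in log2). Sv2b, a vesicle glycoprotein gene, was 4.43-fold lower (1045 to 327).

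Channel genes differed in both directions: of 30 detected, 4 were at least 2-fold higher and 2 lower, against 4.41% and 1.72% of all genes. The AMPA receptor subunit gene Gria3 went from 472 to 1934, 4.39-fold higher, though its 2 other probes, not detected with Nurr1, gave bounds of 0.64 and 1.33 (log2). Chrna4 and Chrna5, nicotinic acetylcholine receptor subunits, were 2.39-fold and 2.55-fold higher, and Cacna1a, the pore of P/Q-type calcium channels, at least 3.54-fold. Without background correction the Cacna1a bound was 2.28-fold. Averaged over its probes, Chrna4 was under 2-fold (0.97 in log2). The kainate receptor gene Grik1 was 3.19-fold lower (1179 to 463) and the potassium channel gene Kcna2 2.66-fold (716 to 350). The axon guidance receptor genes Nrp1 and Nrp2, which bind semaphorins, were 2.03-fold and 2.08-fold higher, with other probes at 0.89 and 0.78 (log2). Without background correction both were under 2-fold.

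**Figure D3:**
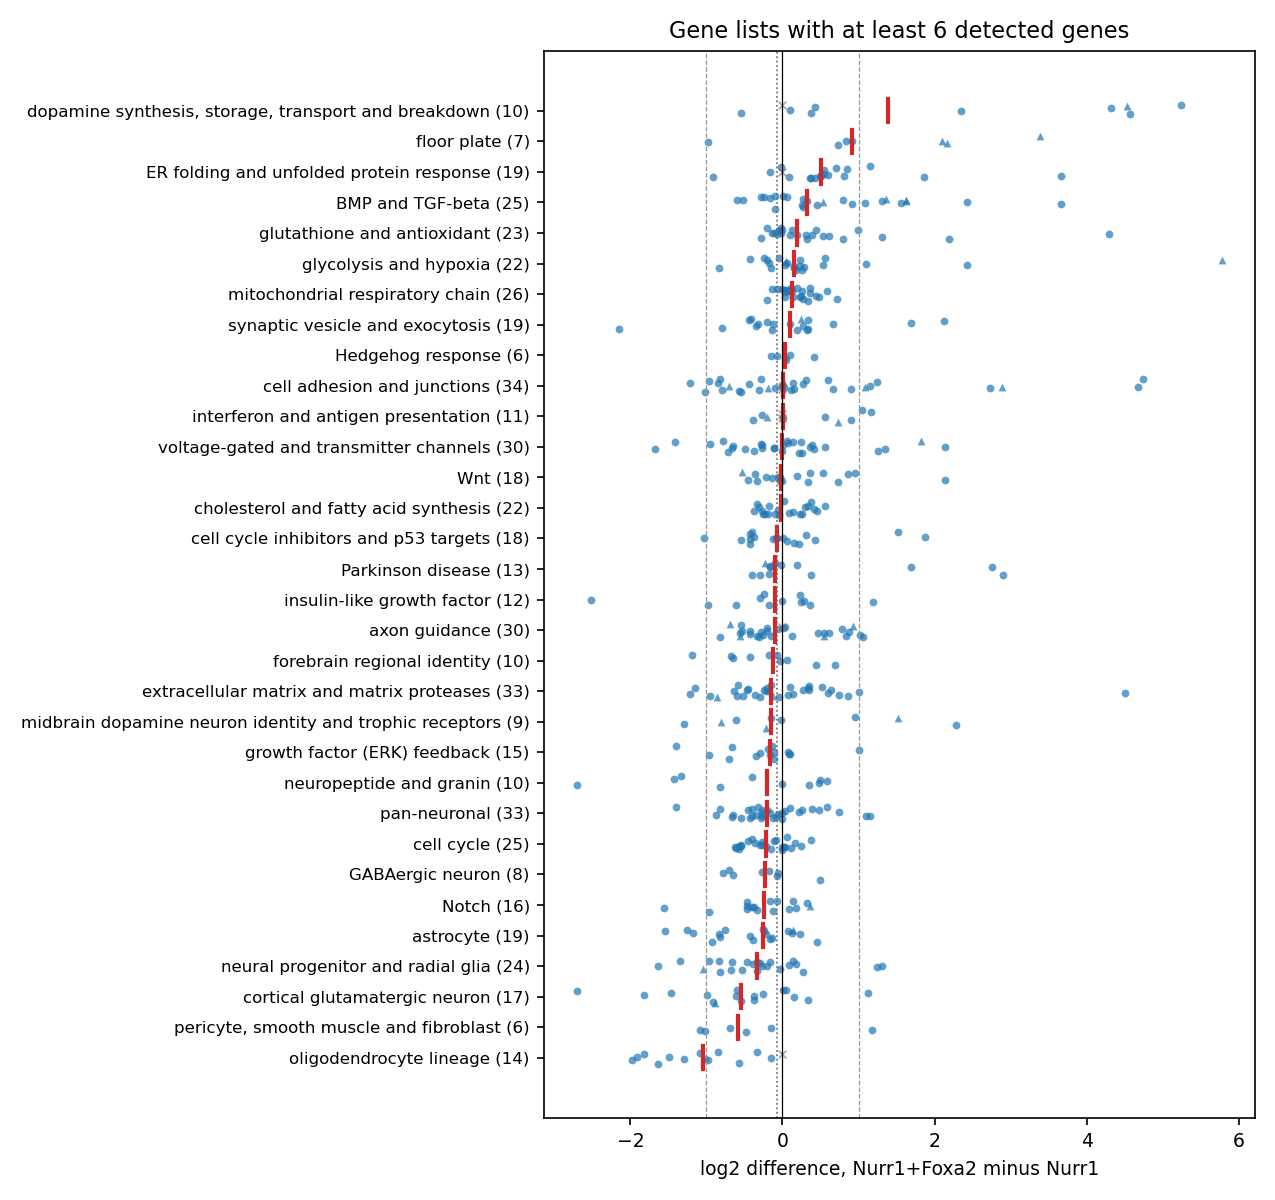
Log2 differences, both factors minus Nurr1, of the detected genes in the 32 gene lists with at least 6 detected genes, given in brackets. Circles are measured differences, triangles bounds and crosses genes given no difference. Red bars are list medians, the dotted line is the median of all genes (-0.08) and dashed lines mark 2-fold. The medians run from -1.05 for the oligodendrocyte lineage to 1.39 for dopamine synthesis and transport.

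On the lower side, the leading genes were mostly ones that stood high with Nurr1. Nptx2, a pentraxin that gathers AMPA receptors at synapses, had signals of 217 (Control), 831 (Nurr1), 215 (Foxa2) and 216 (both). It was 6.53-fold lower with both factors than with Nurr1, at the same level as on the 2 arrays without Nurr1. Igfbp3, which binds insulin-like growth factors, had 659, 19278, 2553 and 3678 in that order and was 5.74-fold lower. Prkcq, a protein kinase C gene, had 2485, 4742, 1128 and 975 and was 5.66-fold lower. Cytip, a regulator of cytohesins, was 5.63-fold lower (1000 to 269), Chst8, a sulphotransferase gene, 5.36-fold (2414 to 560) and Myh8, a perinatal muscle myosin gene, 4.61-fold (1354 to 392). The muscarinic receptor gene Chrm3 was detected with Nurr1 (559) and not with both factors (173), at least 5.88-fold lower. Without background correction Nptx2 was 4.20-fold and the bound of Chrm3 3.42-fold lower.

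**Figure D4:**
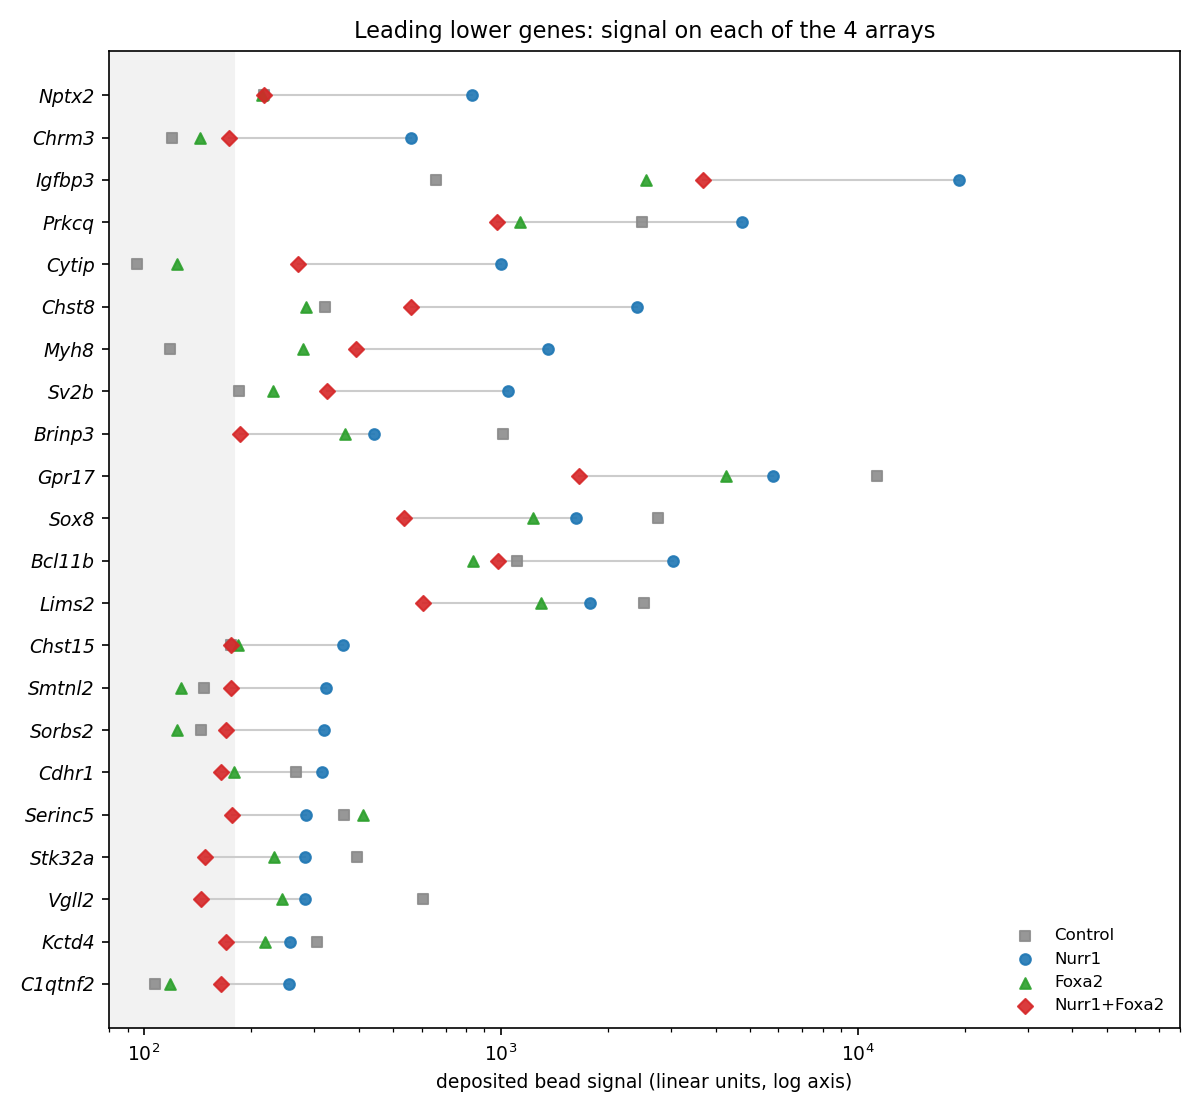
Deposited bead signal (log axis) on each of the 4 arrays for the 12 largest measured differences and the 10 largest bounds on the lower side, with markers and shading as in the plot of the higher genes. Igfbp3, Chst8, Cytip and Nptx2 are brightest with Nurr1, while Gpr17, Sox8, Lims2 and Brinp3 are brightest on the Control array and dimmest with both factors. Without background correction C1qtnf2, Cdhr1, Kctd4, Serinc5, Smtnl2, Sorbs2, Stk32a and Vgll2, plotted as bounds, were under 2-fold.

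Genes of the oligodendrocyte lineage formed the list with the lowest median, -1.05 over 14 detected genes. Of these 8 were at least 2-fold lower, where 1.72% of all detected genes were, and none was above 0. Gpr17, a receptor of committed oligodendrocyte precursors, went from 5803 to 1652, 3.96-fold lower, and Sox8, a transcription factor gene of the lineage, from 1625 to 534, 3.77-fold. Lims2 was 3.55-fold lower, with its other probes at -1.80 and -1.67 (log2), Olig2, the factor that specifies the lineage, 3.10-fold (1983 to 752), Bcas1 2.80-fold (11138 to 4318) and Cnp, a myelin enzyme gene, 2.46-fold. The precursor markers Pdgfra (6867 to 3474) and Cspg4 (335 to 230) were 2.12-fold and 2.02-fold lower, the latter less than 2-fold without background correction (-0.69 in log2). Olig1 was the brightest (46813 to 26787, log2 -0.85). Mbp, the gene of mature myelin, was at the limit of detection on both arrays (161 and 179), and Sox10 had no named probe. With RNA from whole cultures, fewer cells of a type and less RNA per cell cannot be told apart.

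Progenitor and astrocyte lists held some lower genes, with smaller differences. Of 24 detected genes of neural progenitors and radial glia 18 lay below 0, against 58.5% of all genes. At least 2-fold lower were 3, against 1.72% of all genes: Olig2, the fatty acid binding protein gene Fabp7 (496 to 271, 2.54-fold) and Sox3 (248 to 166, at least 2.07-fold). The bound of Sox3 was under 2-fold with uncorrected background or with equal medians. Sox2 went from 3278 to 2243 (log2 -0.67), Sox9 from 1851 to 1157 (-0.82) and the intermediate filament gene Nes from 1506 to 1414 (-0.21). Mt3 and Msi2, an RNA-binding protein gene (887 to 2145, 2.37-fold), were higher, though a second Msi2 probe gave 0.66 (log2). In the Notch pathway, Nrarp, a target that damps the signal, was 2.95-fold lower (3610 to 1372) and the target gene Hes5 1.96-fold (2377 to 1340), while Hes1 went from 390 to 465 and Notch1 from 1266 to 1096. Of 16 detected Notch genes 1 was at least 2-fold lower, against 1.72% of all genes, and none higher, against 4.41%.

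Among 19 detected astrocyte genes, 3 were at least 2-fold lower, against 1.72% of all genes, and 14 lay below 0. Scrg1 went from 353 to 194, 2.92-fold, the glutamate transporter gene Slc1a2 from 437 to 255, 2.38-fold, and Cd44, a hyaluronan receptor, from 407 to 249, 2.27-fold. All 3 were under 2-fold with the authors' values. The gap junction gene Gja1 (29802 to 16910, log2 -0.82) and the lipoprotein gene Apoe (1903 to 1117, -0.92) were lower by less, and the water channel gene Aqp4 was level (465 and 466). Gfap had no named probe.

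Of 17 detected genes of cortical glutamatergic neurons, 12 lay below 0 and 5 above. At least 2-fold lower were 3 and higher 1, against 1.72% and 4.41% of all genes, and the median was -0.55. After Nptx2, the largest differences were those of Bcl11b, the factor of deep-layer projection neurons (3039 to 984, 3.55-fold lower, with 1108 on the Control array), and Nrn1, neuritin (719 to 343, 2.76-fold). Lmo4, a transcriptional cofactor, was 2.19-fold higher (10045 to 22902). Of 8 detected GABAergic genes none was 2-fold apart and 7 lay below 0, among them Gad1, which makes GABA (457 to 432). Forebrain region genes were close, with Otx1 above (5211 to 8968, log2 0.70), Lhx2 below (491 to 369, -0.68) and Nr2f1 level (9665 to 10817, 0.06). Gbx2, a gene of the midbrain-hindbrain boundary and forebrain, was 2.29-fold lower (663 to 368), but under 2-fold without background correction (-0.98 in log2). The cortical markers Emx2 and Pax6 had no named probe, so the label of cortical cells was checked on Lhx2, Nes and Sox2, all detected on both arrays.

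Cell cycle genes did not reach 2-fold in either direction. Of 25 detected, 18 lay below 0, against 58.5% of all genes, with values from -0.62 for Birc5, a mitotic survival gene, to 0.37 for E2f1, a factor of the start of S phase, with a median of -0.21. The inhibitors of cyclin-dependent kinases differed more. Cdkn1a, which encodes p21, went from 1327 to 4954, 3.66-fold higher, with other probes at 1.64 and 1.67 (log2). Cdkn1c, which encodes p57, went from 2786 to 8315, 2.86-fold higher. The Cdkn1c signal was 12058 on the Control array, above that with both factors, and 26362 on the Foxa2 array. Cdkn1b (log2 -0.42) and Cdkn2c (-0.43) were below, and the p53 targets Mdm2 (0.06) and Sesn1 (-0.12) were level. Plk2, a kinase gene that p53 and synaptic activity induce, was 2.04-fold lower, but under 2-fold without background correction (-0.96 in log2).

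In the list of genes tied to Parkinson disease and related disorders, 3 of 13 detected were higher, against 4.41% of all genes, and the median was -0.09. Lrrk2, encoding a large kinase, went from 377 to 2478, 7.49-fold, and was 196 with Foxa2 alone. Chchd10, a mitochondrial protein gene linked to motor neuron disease, went from 757 to 4964, 6.74-fold, with 719 on the Foxa2 array. Dnajc6 is given above, and the other 10 of 13 detected genes lay within 1.5-fold, among them Park7 (14316 to 14268) and Pink1 (964 to 864).

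Of the lists for cells outside the neural lineage, 1 of 4 genes with a probe was detected for microglia and blood, 2 of 3 for endothelium, 6 of 8 for pericytes, smooth muscle and fibroblasts, and 4 of 5 for neural crest and pigment cells. Aif1 and Hba-a1, of microglia and red cells, and Kdr, of endothelium, were detected on neither array. Ramp2 and Egfl7, which endothelium expresses among other cells, were 4.43-fold and 2.01-fold higher (373 to 1496 and 283 to 533). Egfl7 was under 2-fold without background correction (0.78 in log2). Col1a1 was detected on neither array, Dcn was near the limit (227 and 206) and Acta2 went from 292 to 236. Foxc1, a transcription factor gene of mesenchyme, was 2.26-fold higher (234 to 471), but under 2-fold without background correction. Of the neural crest and pigment list Mia was higher, while the pigment gene Tyrp1 went from 5267 to 4220. The summed signal of the 3 pericyte and fibroblast markers with a probe was 678 with Nurr1 and 605 with both factors. The part of other cells in the differences was not tested.

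The position of the other arrays was counted on values normalized over all 4. Of the 352 higher genes, the array with both factors was the brightest for 298 and the Foxa2 array for 52, and 109 were at least 2-fold brighter with Foxa2 alone than with Nurr1. Of the 137 lower genes, the Nurr1 array was the brightest for 71 and the Control array for 64, and 62 were at least 2-fold dimmer with Foxa2 alone than with Nurr1. Choosing genes by their difference from the Nurr1 array favours such orders, so the counts describe these genes and support nothing further.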

How the data were processed

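RNA of cultured mouse neural precursors was labelled with biotin (Ambion MessageAmp kit) and hybridised to Illumina arrays, per the labels' protocols. Per the file headers, the authors deposited for each array a bead signal, a linear intensity without normalization, and a detection p-value for 25697 probes. The lowest signals lie well above 0, so background had not been subtracted. They also deposited log2 values for 13246 probes, whose identical distribution in all 4 columns shows quantile normalization. Which software made them is not given in the sources used here.

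Symbols came from the platform annotation: 12484 probes had 1 symbol, none had several and 762 of the value table had none. RefSeq's gene table (GRCm38.p6) held the Entrez identifier of 12480, and no symbol changed. Other probes have no name here. The function neqc of limma 3.58.1 in R 4.3.3 took background from the detection p-values of the 2 arrays compared, added an offset of 16, and applied quantile normalization over these 2 arrays and log2. Further steps used pandas 2.3.3 and numpy 2.4.6 under Python 3.11.15, with matplotlib 3.10.9 for figures. The member probe with the highest mean stood for a gene. Folds are of normalized values, while printed signals are as deposited and give other ratios. A gene whose bound pointed against the array that detected it was given no difference and counts as 0 in medians (27 genes). The steps were tested on simulated arrays. No test was possible with 1 array per group, and the number of arrays limits the precision.

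The genes named are the 12 largest measured differences and 10 largest bounds in each direction, up to 6 members a direction of each of 37 gene lists that differed at least 2-fold, the dopamine synthesis list in full, and members described for their role. Other list members given as examples were chosen after their values were seen. The comparison and the lists were chosen with earlier results of these data known. The 14 listed genes of other monoamine and cholinergic neurons had no named probe.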

Additional observations from a re-analysis of the deposited data

Results flagged for a closer look

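Of 856 probes without a gene symbol that were detected on at least 1 of the 2 arrays, 83 were at least 2-fold higher with both factors than with Nurr1 and 26 at least 2-fold lower. Of the 7979 detected named genes, 4.41% passed the same limit upward and 1.72% downward. Those shares count genes, whereas the numbers for unnamed probes count probes, and the difference between them was not tested. These probes enter no other comparison of the report. Among the 83, 50 had a signal with both factors and were detected neither with the empty virus nor with Nurr1, which is what marked them. The probe ILMN_2965903 had a signal of 11659 with both factors, against 130 (Control), 112 (Nurr1) and 125 (Foxa2), at least 127-fold above Nurr1. The probe ILMN_1247347 had 8700 with both factors and 78.5, 80.7 and 79.2 on the same 3 arrays, at least 95.3-fold. Both bounds exceed that of any named gene. On the lower side, ILMN_1240381 went from 2652 with Nurr1 to 329 with both factors, 11.7-fold. The genes of these probes are not known here.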

How the results depend on the processing

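No paired analysis was possible because each group has a single array. Under the alternatives to the normalization, the detection limit, the floor and the choice of probe, the higher genes numbered 253 to 400 and the lower ones 73 to 164, and 240 of the 352 and 69 of the 137 were at least 2-fold apart in the same direction under all 8 settings. Without background correction and with the authors' deposited values the lower genes numbered 73 in each case. A 1.5-fold limit gave 763 higher and 554 lower. The share of differing genes that were higher was 57.9% at 1.5-fold, and between 70.9% and 78.0% under the alternatives that keep the 2-fold limit, against 72.0%. Of 252 list medians under the alternatives 241 moved by less than the spread between probes (0.20 in log2) and 11 by more, none was counted as reversed. The endothelial median (2 genes) was 1.33 without background correction, 1.34 with the authors' values and 1.01 with detection under 0.05, and that of pericytes and fibroblasts was -0.37 and -0.36 under the first 2. With detection under 0.05 the dopamine synthesis median was 0.40, that of interferon and antigen presentation genes 0.49 (0.00 in the main setting) and that of microglia and blood -0.62. Without a floor, interferon genes had 0.57, microglia and blood (1 gene in the main setting) -0.62 and neural crest and pigment genes -0.57. Of 840 values of named genes under the alternatives 631 stayed within that spread, 209 moved by more and none turned. Of the 114 genes picked for naming by difference, 16 lower and 10 higher ones were under 2-fold without background correction. Among the lower ones were 9 of the 11 picked bounds. The cause was not tested. Signals near background limit the dim genes most.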

Other observations

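Subunits of the mitochondrial respiratory chain lay slightly above their Nurr1 values. Of 26 detected genes 22 were above 0 and none reached 2-fold, with a median of 0.13 (log2) against -0.08 for all genes, of which 41.1% were above 0. Cox5a, a subunit of complex IV, was the furthest apart (12274 to 21246, log2 0.71). Of 22 genes of cholesterol and fatty acid synthesis, 11 lay above 0 and 11 below, within a range from -0.38 (Acaca) to 0.56 (Elovl5). Among 15 genes fed by growth factor signalling, Egr1, an immediate early gene, was 2.02-fold higher (2605 to 5521) and Ier3 2.65-fold lower (746 to 364). Egr1 was under 2-fold without background correction (0.99 in log2). Dusp6 (2747 to 3065) and Etv5 (739 to 843) were level.

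Igfbp5 went the other way from Igfbp3, from 2292 with Nurr1 to 5469 with both factors, 2.29-fold higher, with 15982 on the Foxa2 array. Of 12 insulin-like growth factor genes detected, these were the only members 2-fold apart, where 4.41% of all genes were higher and 1.72% lower. The antigen presentation genes B2m (2729 to 5960, 2.06-fold) and H2-T23 (688 to 1551, 2.24-fold) were higher, 2 of 11 detected genes of their list against 4.41% of all genes, with a list median of 0.00. The 2 probes of each gave nearly the same difference (1.04 and 1.00, 1.16 and 1.16 in log2). Dkk3, a secreted protein related to Wnt antagonists, was 4.42-fold higher (486 to 2023). It was the only one of 18 Wnt genes 2-fold apart, where 4.41% of all genes were higher and 1.72% lower. Of 10 detected genes of the neuropeptide and granin list, which does not hold Npvf, 3 were at least 2-fold lower, against 1.72% of all genes, and none higher. They were Nptx2, a pentraxin also counted among the cortical glutamatergic genes, Pdyn (930 to 456, 2.52-fold) and Nmb (549 to 282, 2.70-fold). A second Pdyn probe gave -0.27 in log2, and averaged over its probes Pdyn was under 2-fold (-0.80 in log2).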
